A study of Homo sapiens with 6 samples.

Results

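Claudins and the proteins that anchor them seal the space between epithelial cells. The 9 genes described here were CLDN1, CLDN3, CLDN4, CLDN7, CLDN12, OCLN, TJP1, F11R and MARVELD2, chosen by name as claudins and tight junction genes. All 9 were found among the 16306 genes of the deposited gene table, and all 9 were among the 12620 genes with enough reads to be tested. RNA was sequenced from PC9, a human lung adenocarcinoma cell line that carries an activating deletion in EGFR. Of the 6 libraries, 3 came from cells with a control shRNA (sh-NC, replicates 1 to 3) and 3 from cells with an shRNA against RBM10 (shRBM10), a nuclear RNA-binding protein that regulates splicing. No treatment or time point separates the groups. The shRNA sequence is not named in the labels. The shRBM10 columns share the tag SH1, which could stand for 1 shRNA, but the labels do not explain the tag. Among the shRBM10 columns, the name of A alone matches a numbered replicate, and the others are called B and C. The labels call the samples of each group replicate biosamples 1 to 3. They do not say that replicates came from separate cultures, so p-values measure the spread between these samples, which may be technical.

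In a tight junction, claudins of neighbouring cells pair across the gap and form strands that close the paracellular path or let selected ions through. Occludin (OCLN) and tricellulin (MARVELD2) are MARVEL-domain membrane proteins, the first found along the strands and the second concentrated where 3 cells meet. F11R encodes the adhesion molecule JAM-A, and TJP1 encodes ZO-1, the scaffold that ties claudins and occludin to actin. Epithelial tumour cells commonly keep several of these genes on, and their loss is often followed as a sign of a weakened epithelial state.

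The question was whether lowering RBM10 moved the RNA of these junction genes. Across the 6 libraries the totals lay between 16606408 and 18864257 counts. Gene levels are given as CPM, counts scaled to the TMM-normalized library size. RBM10 stood at 77.9, 64.4 and 79.96 CPM in the sh-NC libraries and at 29.2, 28.0 and 36.6 CPM in the shRBM10 libraries, so the targeted gene was lower in every library labelled as its knockdown. Its log2 fold change was -1.24 (SE 0.23, adjusted p = 0.1 by edgeR's quasi-likelihood test), so RBM10 itself was not called by the rule applied to the members below. It was called in 3 of 15 alternative fits. One was DESeq2 (log2 fold change -1.27, adjusted p = 0.00136). The others were edgeR with trends on GC and length removed (-1.05, adjusted p = 0.0157) and edgeR without sh-NC replicate 2 (-1.42, adjusted p = 0.0489). Epithelial markers, in CPM of the unscaled total, were abundant, with EPCAM, KRT7, KRT8, KRT18, KRT19 and CDH1 together at 32330.1 to 40945.1 CPM in sh-NC and 25842.2 to 36641.3 in shRBM10. The endothelial claudin CLDN5 had 0 counts in 5 libraries and 1 in the other one. The 7 endothelial markers together stood, in CPM of the same kind, at 10.1 to 19.4 in sh-NC and 8.19 to 11.2 in shRBM10. The protocol text speaks of retinas, and the 8 retina markers together stood at 5.04 to 6.38 CPM in sh-NC and 3.70 to 4.43 in shRBM10. Nearly all of this was NRL, at 3.54 to 6.33 CPM in every library. Of the lung markers, NKX2-1, SFTPB and SFTPC were near 0, and EGFR lay between 104 and 875 CPM. One library stood apart within its group: in sh-NC replicate 2 the genes with transcripts of 6000 bases or more had a median log2 ratio of -0.95 to the mean of replicates 1 and 3, and those under 2000 bases a median of 0.70. In shRBM10 libraries A and B, genes with under 42% GC had median log2 ratios of 0.99 and 0.70 to the same mean, against -0.03 in library C. In sh-NC replicate 2 that GC class had a median of -0.40. GC content and transcript length are therefore given beside the members they touch.

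The start sites of 3 claudins are shown first because these were the members whose groups did not overlap in CPM. CLDN1 and CLDN12 were higher and CLDN7 lower in shRBM10. Groups did not overlap for 30.1% of all genes tested, so this share of the 9 members was close to the background. Each line holds the 250 bases before the RefSeq start site (build GRCh38.p14), 5′ to 3′ on the gene's strand, with CACCTG (the E-box read by SNAI and ZEB repressors) and CCGCCC (the GC box read by SP factors) in capitals, on either strand.
CLDN1, chr3:190322447-190322696, minus strand: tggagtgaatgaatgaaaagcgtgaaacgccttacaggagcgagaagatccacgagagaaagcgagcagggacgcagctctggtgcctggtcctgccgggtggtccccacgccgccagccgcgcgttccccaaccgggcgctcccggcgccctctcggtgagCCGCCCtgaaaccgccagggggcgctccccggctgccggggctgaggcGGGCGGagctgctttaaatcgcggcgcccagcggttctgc
CLDN12, chr7:90403211-90403460, plus strand: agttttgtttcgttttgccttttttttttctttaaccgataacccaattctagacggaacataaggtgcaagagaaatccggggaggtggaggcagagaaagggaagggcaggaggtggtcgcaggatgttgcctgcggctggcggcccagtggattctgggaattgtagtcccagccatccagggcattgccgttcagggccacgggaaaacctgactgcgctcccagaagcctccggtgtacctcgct
CLDN7, chr17:7262479-7262728, minus strand: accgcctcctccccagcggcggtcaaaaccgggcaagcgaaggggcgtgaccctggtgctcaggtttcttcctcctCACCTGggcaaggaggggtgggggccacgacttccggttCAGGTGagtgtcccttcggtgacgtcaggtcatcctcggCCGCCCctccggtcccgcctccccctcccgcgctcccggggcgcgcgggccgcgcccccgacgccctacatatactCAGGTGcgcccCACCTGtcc
In these windows CLDN1 holds 2 GC boxes and no E-box, CLDN12 holds neither motif, and CLDN7 holds 4 E-boxes and 1 GC box. Another RefSeq start site of CLDN7, at chr17:7263213, holds neither motif in its window. The matches did not overlap one another. The pair of claudins that were higher did not share either hexamer here. Over the full windows, which add 50 bases after the start, 20.6% of all 35116 RefSeq promoters held CACCTG, 45.0% held CCGCCC and 1.73% held AACCNGTT, the grainyhead-like motif. RefSeq promoters were matched for 8 of the 9 members, all but F11R. In the window nearest the annotated start, AACCNGTT was in 0 of these 8, CACCTG in 3 (CLDN3, CLDN7 and OCLN) and CCGCCC in 6. The annotated start can lie inside the gene coordinates given below, as in CLDN7 and TJP1, so these counts depend on the start taken. Another TJP1 window, with its start at chr15:29969049, held 1 CACCTG and 3 CCGCCC. A match of letters is a description and not a site of binding.

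Levels per transcript length were compared first, as the authors' TPM, a level scaled by transcript length and library, in the 3 sh-NC libraries. CLDN7 was the highest member, at 573, 392 and 574 TPM in replicates 1 to 3. CLDN4 followed at 394, 243 and 383 TPM, and its range overlapped that of CLDN7 by the value of replicate 2. F11R had 86.8, 58.5 and 91.8 TPM and CLDN3 had 25.4, 28.1 and 30.6 TPM, and neither range met that of its neighbours in the order. The main claudin RNA measured was thus that of CLDN7 and CLDN4, with CLDN7 at rank 245 and CLDN4 at rank 371 of the gene table by mean sh-NC TPM. The other 5 members were CLDN1 at 10.2 ± 4.9 TPM, OCLN at 5.93 ± 2.37, TJP1 at 5.32 ± 4.15, CLDN12 at 5.28 ± 2.73 and MARVELD2 at 4.50 ± 2.07 (SD, n = 3). CLDN1 was the highest of these 5 in each of the 3 replicates. The ranges of the other 4 overlapped from each to the next. The scale matters for sh-NC replicate 2: CLDN7 had its highest sh-NC value there in CPM and its lowest there in TPM. In the authors' mean TPM over shRBM10, CLDN7 stood at 413 and CLDN4 at 411, CLDN1 at 22.6 and CLDN12 at 12.9.

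Between the groups, none of the 9 members was called by edgeR's quasi-likelihood test, where a call needs an adjusted p below 0.05 and a log2 fold change beyond 1 in either direction. By this rule 2 of the 12620 genes passed (0.0158%). With the p left unadjusted and the fold limit kept, a looser rule called the unadjusted threshold below, 2 of 9 passed, CLDN1 and CLDN12, both higher, against 11.6% of all genes tested (10.1% higher and 1.53% lower). DESeq2 called 0 of 9, against 4.35% of the genes for which it gave an adjusted p (3.33% higher and 1.02% lower). CLDN1 and CLDN12 were near its limits, with log2 fold changes of 0.97 and 1.11 and DESeq2 adjusted p-values of 0.0559 and 0.0631. Groups did not overlap for 3 of 9 members, CLDN1 and CLDN12 higher and CLDN7 lower, against 30.1% of all genes (13.8% higher and 16.2% lower), so this share was close to the background. The median log2 fold change of the 9 was 0.15, beside 0.03 for all genes tested, and 6 of 9 were above 0, beside 51.6% of all genes. In bulk RNA, fewer cells that express a gene and less RNA of it per cell cannot be told apart.

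**Figure D1:**
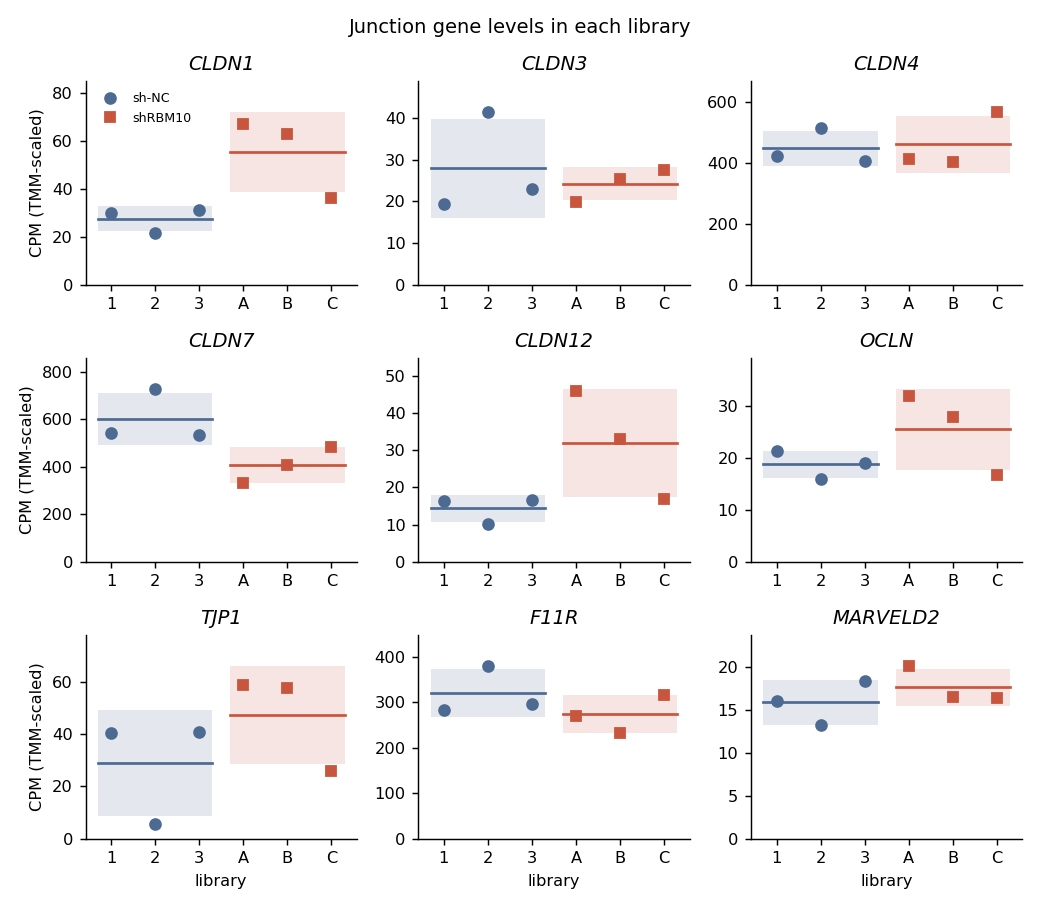
Level of each of the 9 genes in every library, in CPM after TMM scaling (vertical axes from 0, each panel with its own scale). Circles are sh-NC replicates 1 to 3, squares shRBM10 libraries A to C, lines the group means and shaded bands 1 SD (n = 3). CLDN1 and CLDN12 were high in libraries A and B and close to sh-NC in library C, and TJP1 was lowest in sh-NC replicate 2.

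CLDN1 encodes claudin-1, a claudin that seals the barrier in skin and many other epithelia. The gene (Entrez 9076) lies at chr3:190305701-190322475 on the minus strand of GRCh38. It had 29.9, 21.5 and 31.4 CPM in sh-NC replicates 1 to 3 and 67.3, 62.9 and 36.1 CPM in shRBM10 libraries A, B and C. All 3 shRBM10 values were above all 3 sh-NC values, and library C was the nearest to them. The means were 27.6 ± 5.4 and 55.4 ± 16.9 CPM (SD, n = 3), and the log2 fold change was 1.01 (SE 0.30, adjusted p = 0.153 by edgeR's quasi-likelihood test). A two-sided exact permutation test of the CPM gave p = 0.1, the smallest that 3 against 3 allow.

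CLDN12 encodes claudin-12, a claudin that lacks the PDZ-binding tail by which most claudins hold ZO proteins. The gene (Entrez 9069) lies at chr7:90383721-90513402 on the plus strand. It had 16.3, 10.2 and 16.5 CPM in sh-NC and 46.0, 33.1 and 16.8 CPM in shRBM10 A, B and C. The groups did not overlap, but library C was above the highest sh-NC value by less than the spread within sh-NC. The log2 fold change was 1.15 (SE 0.38, adjusted p = 0.158 by edgeR's quasi-likelihood test). By profile over the 6 libraries, CLDN1 and CLDN12 were each other's nearest member, with a root mean square difference of 0.18 between their log2 CPM centred on each gene's mean. Over all tested genes the nearest were GABPA for CLDN1 (0.06) and IPO8 for CLDN12 (0.03). The ratio of CLDN1 to CLDN12 counts was 1.95 ± 0.14 in sh-NC and 1.84 ± 0.35 in shRBM10 (SD, n = 3), which differed by less than the spread between replicates.

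CLDN1 and CLDN12 have 41.5% and 38.1% GC in their longest matched transcripts, and both stand in the class under 42% in which libraries A and B were high as a whole. Relative to the mean of sh-NC replicates 1 and 3, CLDN1 had log2 ratios of 1.13, 1.04 and 0.23 in A, B and C, and CLDN12 had 1.48, 1.01 and 0.03. The class medians were 0.99, 0.70 and -0.03. Within this class of 2855 genes, 69.7% had a lower log2 fold change than CLDN1 and 81.1% a lower one than CLDN12, so neither was at the edge of its class. With an offset that takes out the GC trend of each library, the log2 fold change was 0.31 (SE 0.14) for CLDN1 and 0.36 (SE 0.18) for CLDN12, with adjusted p-values of 0.291 and 0.314 from edgeR. On that scale CLDN1 had 34.1, 32.8 and 36.2 adjusted CPM in sh-NC and 40.1, 45.6 and 41.7 in shRBM10, and the groups still did not overlap. On this scale groups did not overlap for 5 of 9 members, CLDN1, CLDN4 and CLDN12 higher and CLDN7 and OCLN lower, beside 30.3% of all genes (12.9% higher and 17.4% lower). In sh-NC replicate 2 CLDN1 had a log2 ratio of -0.51 and CLDN12 one of -0.68 to the same mean, where the class median was -0.40. Without sh-NC replicate 2, in which both genes were lowest, the log2 fold changes were 0.77 and 0.87. Without library A the adjusted p-values were 0.566 and 0.574 in edgeR, and the log2 fold changes were 0.84 and 0.79.

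**Figure D2:**
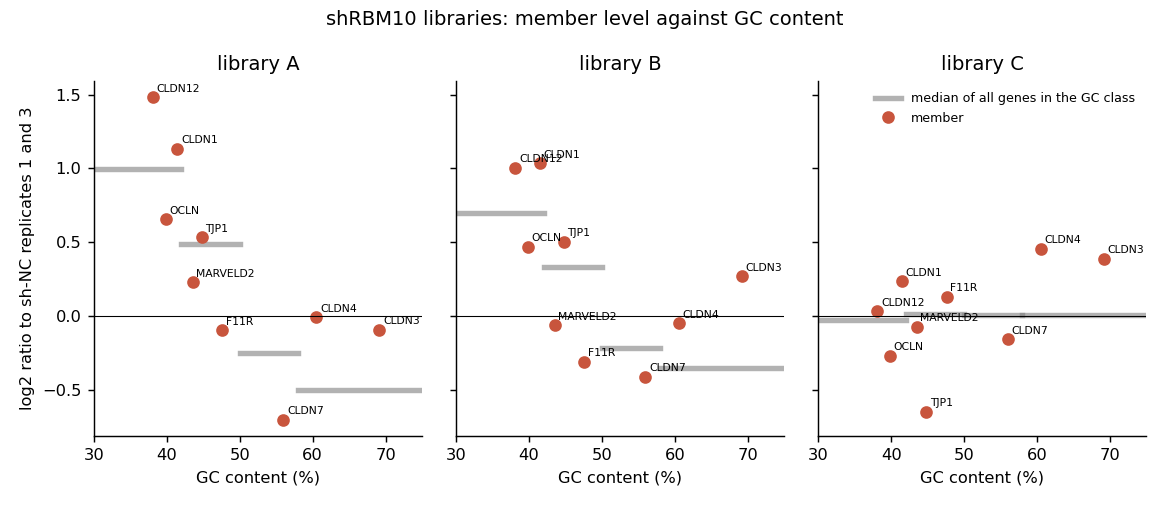
Log2 ratio of each member's CPM in shRBM10 libraries A, B and C to the mean of sh-NC replicates 1 and 3 (vertical axis) against the GC content of its longest matched transcript in percent (horizontal axis). Points are the 9 members and grey bars the medians of all tested genes in 4 classes of GC. CLDN12 and CLDN1 lie high in A and B with the class under 42%, and all members but TJP1 lie between -0.27 and 0.45 in C.

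CLDN7 encodes claudin-7, found on the lateral membrane as well as in the junction of lung, kidney and gut epithelium. The gene (Entrez 1366) lies at chr17:7259903-7263983 on the minus strand. It had 542, 728 and 535 CPM in sh-NC and 331, 405 and 482 CPM in shRBM10 A, B and C. Every shRBM10 library was below every sh-NC library. The means were 602 ± 110 and 406 ± 76 CPM (SD, n = 3), and the log2 fold change was -0.57 (SE 0.26, adjusted p = 0.212 by edgeR's quasi-likelihood test), so the fold limit was not reached. Groups that do not overlap in this direction made up 16.2% of all genes tested. The direction was kept in each of 15 alternatives, from -0.75 to -0.21, and with the GC trend removed the value was -0.37 (SE 0.19, adjusted p = 0.320 in edgeR). CLDN7 has 56.0% GC, and 16.1% of the 3129 genes in its class had a lower log2 fold change.

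CLDN4 encodes claudin-4, a sealing claudin and, with CLDN3, a receptor for the enterotoxin of Clostridium perfringens. It (Entrez 1364, chr7:73799542-73832693, plus strand) had 423, 512 and 405 CPM in sh-NC and 412, 400 and 567 CPM in shRBM10. Libraries of the groups were interleaved, with library C highest. The log2 fold change was 0.04 (SE 0.25, adjusted p = 0.923 by edgeR's quasi-likelihood test). With the GC trend removed the adjusted CPM were 394, 436 and 379 in sh-NC and 518, 467 and 521 in shRBM10, which did not overlap, and the log2 fold change was 0.32 (SE 0.16, adjusted p = 0.319 by edgeR). It was, the trends on GC and length removed, 0.43 (SE 0.12, adjusted p = 0.0874 by edgeR). CLDN4 has 60.5% GC, in the class over 58% that had median log2 ratios of -0.50 and -0.35 in A and B, and 83.4% of the 3013 genes of the class had a lower log2 fold change.

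CLDN3, the neighbour of CLDN4 in the same chromosome band (Entrez 1365, chr7:73768997-73770270, minus strand), encodes claudin-3, another sealing claudin. It had 19.3, 41.6 and 22.9 CPM in sh-NC and 19.8, 25.4 and 27.7 CPM in shRBM10. The value of sh-NC replicate 2 was the highest of the 6, and the other 5 lay between 19.3 and 27.7 CPM. The log2 fold change was -0.20 (SE 0.33, adjusted p = 0.703 by edgeR's quasi-likelihood test). Without replicate 2 it turned to 0.12, and with the GC trend removed to 0.16. CLDN3 has the shortest transcript of the 9 members (1274 bases) and the highest GC content (69.2%).

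OCLN, the gene of occludin (Entrez 100506658, chr5:69492292-69558104, plus strand), had 21.3, 16.0 and 19.1 CPM in sh-NC and 31.8, 27.9 and 16.7 CPM in shRBM10. Libraries A and B were above all sh-NC values and library C was below 2 of them. The log2 fold change was 0.44 (SE 0.30, adjusted p = 0.356 by edgeR's quasi-likelihood test). OCLN has 39.9% GC, and 30.3% of the genes in the class under 42% had a lower fold change, so its log2 ratios of 0.66 and 0.47 in A and B were below the class medians. With the GC trend removed the direction turned: adjusted CPM were 24.3, 25.4 and 22.2 in sh-NC and 18.4, 19.7 and 19.5 in shRBM10, which did not overlap, with a log2 fold change of -0.32 (SE 0.15, adjusted p = 0.297 by edgeR). OCLN shares sequence with a partial pseudogene copy, so its counts are uncertain where reads were shared out.

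MARVELD2, the gene of tricellulin (Entrez 153562, chr5:69415065-69444330, plus strand), had the lowest mean TPM of the members. It had 16.0, 13.2 and 18.4 CPM in sh-NC and 20.1, 16.4 and 16.3 CPM in shRBM10. The groups overlapped, with a log2 fold change of 0.15 (SE 0.26, adjusted p = 0.722 by edgeR's quasi-likelihood test). It was -0.37 with the GC trend removed and -0.05 without sh-NC replicate 2, so the sign was not stable. OCLN and MARVELD2 were each other's nearest member by profile, at a root mean square difference of 0.28. Over all tested genes the nearest were USP14 for OCLN (0.04) and ARNT for MARVELD2 (0.06).

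F11R, the gene of JAM-A, a homophilic adhesion molecule that takes part in building the junction (Entrez 50848, chr1:160995211-161021348, minus strand), had 283, 380 and 295 CPM in sh-NC and 270, 233 and 317 CPM in shRBM10. The ranges overlapped through library C. The log2 fold change was -0.23 (SE 0.24, adjusted p = 0.551 by edgeR's quasi-likelihood test), and it was below 0 in all 15 alternatives, between -0.55 and -0.07. F11R has 47.6% GC, and 18.95% of the 3578 genes in its GC class had a lower log2 fold change. Its transcript of 4835 bases is in a length class with a median log2 ratio of -0.46 in sh-NC replicate 2, where F11R had 0.39, and 88.9% of that class was lower. CLDN4 and F11R were each other's nearest member (0.15), and F11R was the nearest member of CLDN3 (0.27) and CLDN7 (0.23) too. Over all tested genes the nearest were ARHGAP8 for F11R (0.04), HOMEZ for CLDN4 (0.02), LRRC46 for CLDN7 (0.03) and SPR for CLDN3 (0.05). Profiles were matched over 6 libraries only, and these libraries share trends on GC and length.

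TJP1, the gene of ZO-1 (Entrez 7082, chr15:29699367-29968865, minus strand), had 40.3, 5.66 and 40.9 CPM in sh-NC and 58.7, 57.5 and 25.8 CPM in shRBM10. The raw counts behind the sh-NC values were 817, 76 and 832. One library, sh-NC replicate 2, was far below the rest, and library C lay below the other sh-NC libraries while A and B lay above them. The log2 fold change was 0.71 (SE 0.60, adjusted p = 0.454 by edgeR's quasi-likelihood test) and 0.14 (SE 0.33) without sh-NC replicate 2. TJP1 has the longest transcript of the members, 7950 bases. Its log2 ratio in replicate 2 was -2.82, and 2.79% of the 2044 genes with 6000 bases or more had a lower one. OCLN, in the same length class at 6438 bases, had -0.33 in that library, and the nearest member to TJP1 by profile, CLDN12, was 0.72 away. The nearest of all tested genes was SLTM (0.09).

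**Figure D3:**
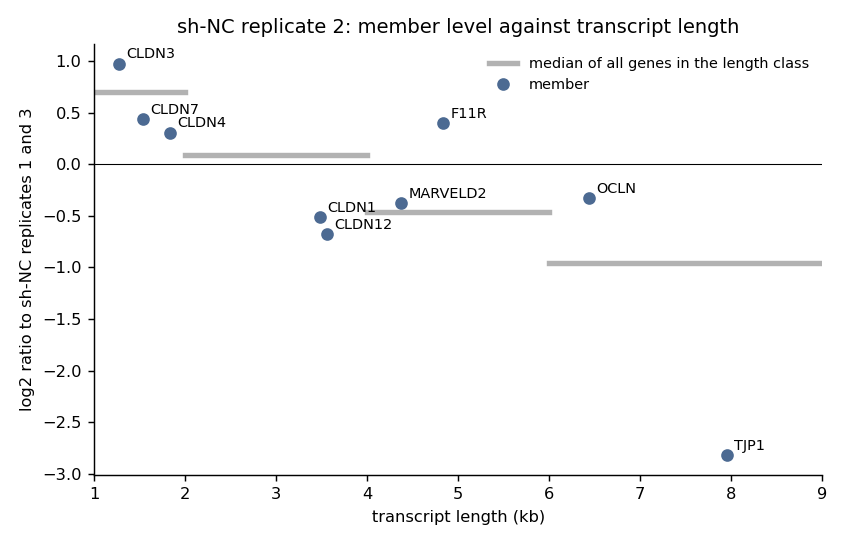
Log2 ratio of each member's CPM in sh-NC replicate 2 to the mean of sh-NC replicates 1 and 3 (vertical axis) against the length of its longest matched transcript in kilobases (horizontal axis). Points are members, and grey bars are medians of all tested genes in 4 classes of length. CLDN3, CLDN7 and CLDN4, the shortest, lie above 0, F11R lies at 0.39 above the median of its class (-0.46), and TJP1, the longest, lies at -2.82.

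The members' values changed with the correction for composition more than with DESeq2 or limma-voom. With the GC trend removed, CLDN3, OCLN and MARVELD2 changed sign, and 0 of 9 members passed the unadjusted threshold, against 4.60% of all genes in that fit. Without sh-NC replicate 2 this count was also 0, against 6.35% of all genes. CLDN1, CLDN12, CLDN7, TJP1 and F11R kept their sign in all 15 alternatives. Among the shRBM10 libraries the GC trend was seen in A and B and not in C, and the shRBM10 libraries that were high for CLDN1 and CLDN12 were A and B.

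**Figure D4:**
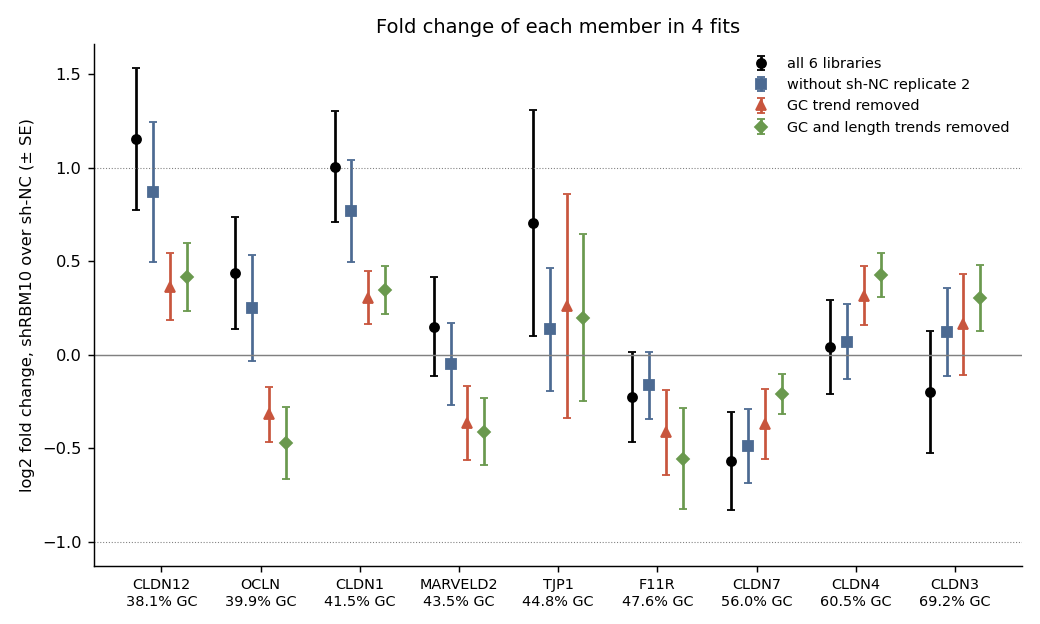
Log2 fold change of shRBM10 over sh-NC with its standard error (vertical axis) for each member, ordered by GC content, in 4 edgeR fits: all 6 libraries, without sh-NC replicate 2, with the GC trend removed, and with GC and length trends removed. Dotted lines mark the fold limit of 1. CLDN12 and CLDN1 drop from 1.15 and 1.01 to 0.36 and 0.31 with the GC trend removed, and OCLN moves from 0.44 to -0.32.

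Since RBM10 acts on splicing, the share of each member's RefSeq transcripts was followed too. CLDN1, CLDN3 and CLDN4 have 1 RefSeq transcript in the table, and F11R gave 99.6% to 100% of its counts to NM_016946 in every library, so usage was tested for the other 5. The Simes test on transcript counts (edgeR's diffSpliceDGE) called 0 of 5, beside 0.108% of the 8350 genes tested, and 0 of 5 had an unadjusted p below 0.05, beside 2.78%. In CLDN7, the sh-NC libraries gave NM_001307 a share of 76.9%, 81.5% and 78.8%, and the shRBM10 libraries gave it 74.5%, 68.5% and 71.5%, the rest being NM_001185022. The shares did not overlap between groups, with means of 79.1% ± 2.3 and 71.5% ± 3.0 (SD, n = 3), and the Simes p was 0.421 unadjusted and 1 adjusted over all genes tested by edgeR. How often transcript shares fail to overlap over all genes was not computed, so this is a description only. In CLDN12, NM_012129 took 78.0% ± 4.2 and 77.4% ± 0.8, and NM_001185072, the transcript with the largest change, took 8.86% ± 2.74 in sh-NC and 14.2% ± 0.7 in shRBM10 (SD, n = 3), with a Simes p of 0.811 from edgeR. The shares of NM_001185072 and NM_001185073 did not overlap between groups either.

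For OCLN, MARVELD2 and TJP1 the shares scattered widely within groups. OCLN gave 71.5%, 54.9% and 48.3% of its counts to NM_001205254 in sh-NC and 0%, 57.8% and 60.2% in shRBM10. Library A alone carried NM_002538 at 59.8%, where 4 of the other 5 libraries were at or under 0.373%. These 2 transcripts exchanged places in a single library, and the Simes p was 0.764 in edgeR. The largest MARVELD2 transcript, XM_005248445, took 59.2% ± 6.2 in sh-NC and 61.6% ± 11.6 in shRBM10, and XM_005248446, which changed most, took 22.0% ± 6.7 and 6.56% ± 11.4 (SD, n = 3). MARVELD2 had a Simes p of 0.973 over all libraries and 0.00180 (adjusted p = 0.376 in edgeR) without library A, the one shRBM10 library with counts for XM_005248446. TJP1 was spread over 18 accessions, with NM_001330239 at 30.9%, 0% and 28.4% in sh-NC and 25.0%, 21.1% and 20.4% in shRBM10. Its transcript with the largest change in mean share was NM_001301026, which stood at 29.3% (22 counts) in sh-NC replicate 2 and at 3.43% or less in the other 5 libraries. Counts of transcripts are the authors' estimates of how shared reads divide. Entries of CLDN7, OCLN, TJP1 and MARVELD2 also occur as numbered copies of an accession, summed here for the shares.

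The other genes of the junction were read from 7 lists written by role. Of 106 listed genes, 81 were tested, 47 were above 0 and the median log2 fold change was 0.08, beside 0.03 for all genes. None was called by edgeR at the adjusted threshold, and DESeq2 called EHF and PATJ. At the unadjusted threshold 12 were higher and 1 was lower, or 16.0% of those tested beside 11.6% of all genes. With the GC trend removed these counts were 2 and 1, and without sh-NC replicate 2 they were 4 and 1, with a median of -0.08, where 4.60% and 6.35% of all genes passed.

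Among the other claudins, 12 of 20 were in the table and 4 were tested, with a median of -0.29 and 0 past the unadjusted threshold. CLDN9 was the highest of them per length, with 40.6, 49.4 and 40.9 CPM in sh-NC and 30.4, 30.4 and 43.9 CPM in shRBM10. Claudins 5, 6, 8, 10, 11, 14, 16 and 20 had at most 8 counts in any library. The claudin RNA at levels that could be tested was that of the 5 claudin members, CLDN9, CLDN15 and CLDN23, with the claudin-domain gene CLDND1. Of the other membrane proteins 9 were tested, with a median of -0.05. EPCAM, which binds claudin-7 and steadies it, was the highest per length, at 315, 340 and 320 CPM in sh-NC and 282, 301 and 343 CPM in shRBM10. CXADR, an adhesion molecule of the junction that adenoviruses use for entry, was the one gene past the unadjusted threshold, with a log2 fold change of 1.20 (SE 0.42, adjusted p = 0.169 by edgeR), and 0.41 with the GC trend removed. Without sh-NC replicate 2 it had 0.91.

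Of the plaque and polarity list, the longest of the 7, 6 genes were higher and 1 was lower at the unadjusted threshold among 28 tested, beside 10.1% higher and 1.53% lower over all genes, and its median was 0.25. PATJ, a multi-PDZ scaffold of the Crumbs complex, had 21.1, 12.5 and 22.1 CPM in sh-NC and 83.6, 59.3 and 25.5 CPM in shRBM10, with a log2 fold change of 1.59 (SE 0.42, adjusted p = 0.146 by edgeR). Its partner PALS1 had 1.09 (SE 0.43) and the related scaffold MPDZ had 1.30 (SE 0.56) on the log2 scale, and with the GC trend removed PATJ had 0.98, PALS1 0.32 and MPDZ 0.74. As with CLDN1 and CLDN12, libraries A and B were high for PATJ and library C lay near sh-NC. The paracingulin gene CGNL1 had a log2 fold change of 1.87 (SE 0.56) at a level of 0.64 ± 0.43 CPM in sh-NC and 2.46 ± 1.19 in shRBM10 (SD, n = 3). MAGI1, a scaffold, had 1.23 (SE 0.53) and AMOT, the angiomotin that ties polarity to Hippo signalling, 1.13 (SE 0.38), and their groups did not overlap. Of the 28 genes, groups did not overlap for 7 on the higher side and 4 on the lower side. Over all genes tested these shares were 13.8% and 16.2%. Without sh-NC replicate 2, the log2 fold change was 0.70 for MAGI1, 0.73 for AMOT, 0.72 for PALS1 and 0.78 for MPDZ. PATJ had 1.29 and CGNL1 1.38 in that fit. With the GC trend removed MAGI1 had 1.20, AMOT 0.83 and CGNL1 1.85. PARD6A, a polarity adaptor named after its value was seen, was the gene on the lower side, at -1.03 (SE 0.41). It had -0.67 without sh-NC replicate 2 and -0.71 with the GC trend removed. YBX3, a factor held at ZO-1, was the highest of the list per length, at -0.20 (SE 0.22). In the fit with the GC trend removed 1 of 28 genes was past the unadjusted threshold, beside 4.60% of all genes, and without sh-NC replicate 2 there were 2, beside 6.35%, and the median was -0.08.

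Of the 13 adherens junction genes, all were tested, with a median of 0.20 and 2 past the unadjusted threshold, beside 11.6% of all genes. None passed with the GC trend removed or without sh-NC replicate 2, where the median turned to -0.08. NECTIN3 (log2 fold change 1.35, SE 0.45) and AFDN, the afadin that nectins bind (1.15, SE 0.51), were both higher, and AFDN had 40.1, 9.46 and 45.1 CPM in sh-NC, with replicate 2 far below the others. Without that library AFDN had 0.63 and NECTIN3 0.92, and with the GC trend removed AFDN had 1.01 and NECTIN3 0.63. JUP, the gene of plakoglobin, was the highest per length and had a log2 fold change of -0.26 (SE 0.26). Among 6 junction proteases and inhibitors HPN, the gene of the membrane protease hepsin, was past the unadjusted threshold at 1.29 (SE 0.49), at a level of 0.43 ± 0.25 CPM in sh-NC and 1.03 ± 0.24 in shRBM10 (SD, n = 3). HPN had 1.61 with the GC trend removed and 1.48 without sh-NC replicate 2. SPINT2, an inhibitor of matriptase that is tied to claudin-7 turnover, was the highest per length and stood at -0.31 (SE 0.30).

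Of 11 junction transcription regulators tested, 1 passed the unadjusted threshold, and the list's median was 0.00. EHF, an epithelial ETS factor, had 25.4, 8.27 and 23.5 CPM in sh-NC and 77.3, 56.1 and 26.2 CPM in shRBM10, with a log2 fold change of 1.48 (SE 0.48, adjusted p = 0.156 by edgeR), and 0.81 with the GC trend removed. Without sh-NC replicate 2 it had 1.03. The relative ELF3 was the highest per length and stood at -0.21 (SE 0.24). The repressors ZEB1, ZEB2 and TWIST1 had at most 10 counts in any library. Of 10 contractility genes 8 were above 0, beside 51.6% of all genes, with a median of 0.46 and 1 past the unadjusted threshold, the myosin phosphatase subunit PPP1R12A at 1.14 (SE 0.42). The median was 0.22 and PPP1R12A had 0.39 with the GC trend removed, and without sh-NC replicate 2 PPP1R12A had 0.76. MYH9, a myosin heavy chain gene named after its value was seen, was lower, at -0.83 (SE 0.35, adjusted p = 0.192 by edgeR). It had -0.60 with the GC trend removed and -1.19 without sh-NC replicate 2. In that last fit 0 genes of the list were higher and 1, MYH9, was lower at the unadjusted threshold. RHOA, the highest of that list per length, was at -0.47 (SE 0.25), with groups that did not overlap. Of the 10 genes, groups did not overlap for 1 on the higher side and 1 on the lower side, beside 13.8% and 16.2% of all genes.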

How the data were processed

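RNA from 3 sh-NC and 3 shRBM10 PC9 samples was sequenced by BGI-Tech. The authors deposited estimated counts per gene (16306 genes) and per RefSeq transcript (76563 entries), of which 87.5% and 41.1% were whole numbers (tolerance 1e-09), and TPM per gene. The labels name hg38, and the aligner, the counting tool and the annotation are not given in the sources used here. The protocol text names retinas and more than one library kit, without assigning a kit to a library. Only TPM columns that match a sample title were used, with the authors' group mean TPM, and 32 further per-library columns and 14 group-mean columns were not used, among them FPKM and normalized values.

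Estimated counts were rounded, filtered with filterByExpr, scaled by TMM and, in R 4.3.3, fitted on all genes without covariates by edgeR 4.0.16 (glmQLFit, glmQLFTest) with limma 3.58.1. The SE is the log2 fold change divided by the square root of F. Adjusted p-values are Benjamini-Hochberg over the 12620 genes tested. Log ratios used CPM plus 0.1. Transcript usage was tested with diffSpliceDGE. Gene coordinates came from GENCODE 29 (GRCh38), and length and GC from the longest matched transcript, found for 99.6% of tested genes. The scripts were tested on simulated data. The alternatives were DESeq2 1.42.0 on all genes, limma-voom, 3 other scalings, 2 other filters, offsets on GC and on GC with length, and leaving out each library. Totals of 16606408 to 18864257 counts per library set the precision, and the CPM of members with few counts carry the larger counting error.

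The members, lists, motifs and tests were chosen with earlier results of these data known. Named were all 9 members, RBM10, each list's genes with an unadjusted p below 0.05 and a log2 fold change beyond 1 in either direction (up to 6), its gene with the highest TPM, each member's nearest member and nearest gene by profile, and each tested member's largest and most changed transcript.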

Additional observations from a re-analysis of the deposited data

How the results depend on the processing

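Over the 9 members and 15 alternatives, 124 of 135 log2 fold changes kept their direction and their side of the threshold, and 11 turned their direction, in CLDN3, CLDN4, OCLN and MARVELD2. CLDN3 turned to 0.16 with the GC trend removed, 0.30 with GC and length trends removed, 0.0034 with library size only and 0.12 without sh-NC replicate 2. OCLN turned to -0.32 and -0.47 and MARVELD2 to -0.37 and -0.41 under the same GC and GC with length offsets, and MARVELD2 lay between -0.048 (without sh-NC replicate 2) and 0.27 when a library was left out. CLDN4 lay between -0.18 (library C left out) and 0.13, and was -0.026 without sh-NC replicate 3. CLDN3 lay between -0.41 and 0.12 over the same fits. Among genes of the lists, JUP (0.0030) and YBX3 (0.0088) turned with the GC trend removed, CLDN9 (0.058), SPINT2 (0.047) and YBX3 (0.11) with GC and length trends removed, and EPCAM (0.057) with library size only.

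No member was called at the adjusted threshold in any alternative. The count at the unadjusted threshold, 2 of 9, was 1 with DESeq2, limma-voom and RLE factors, 0 with either offset, and 0 to 2 over the fits that leave out 1 library (0 without sh-NC replicate 2 or shRBM10 library A). For the 7 lists together, DESeq2 called 2 genes at the adjusted threshold. The 12 genes higher at the unadjusted threshold were 7 with library size only, 2 with the GC offset, 3 with the GC and length offset and 3 to 14 when a library was left out (4 without sh-NC replicate 2, and 3 or 7 with shRBM10 library A or B left out), and the 1 lower was 0 with limma-voom, upper-quartile factors, library size only and the GC and length offset, and 0 to 1 when a library was left out (0 without shRBM10 library A). The median of the lists, 0.08, lay between -0.082 (without sh-NC replicate 2) and 0.21 (without sh-NC replicate 3) when a library was left out. Transcript usage gave 0 members at an unadjusted p under 0.05, and 0 to 1 when a library was left out (MARVELD2 without shRBM10 library A). Summing the numbered copies of a transcript, an alternative chosen after seeing the data, left 0. The causes were not tested. No paired analysis was possible because the column of only 1 shRBM10 library matches a replicate number. TJP1 in sh-NC replicate 2 rests on 76 counts, and the smallest exact permutation p that 3 against 3 allow is 0.1.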

Other observations

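Ratios of members within a library do not depend on its scaling, and 4 were computed after the values had been seen. CLDN7 counts over CLDN4 counts, the ratio of the most abundant claudin RNAs, were 1.28, 1.42 and 1.32 in sh-NC and 0.80, 1.01 and 0.85 in shRBM10 A, B and C. The groups did not overlap, with means of 1.34 ± 0.07 and 0.89 ± 0.11 (SD, n = 3), and a two-sided exact permutation test gave p = 0.1, the smallest possible, and 0.133 adjusted over the 4 ratios. Because the ratios were picked from values already seen, these p-values are descriptions and cannot serve as tests. CLDN7 has 56.0% GC and CLDN4 60.5%, and the part of GC content in this ratio was not tested. CLDN7 over F11R was 1.88 ± 0.06 in sh-NC and 1.49 ± 0.26 in shRBM10, and CLDN4 over F11R was 1.40 ± 0.08 and 1.68 ± 0.14 (SD, n = 3), also without overlap. With the GC trend removed, CLDN7 had 514, 658 and 504 adjusted CPM in sh-NC and 387, 461 and 449 in shRBM10. F11R had 304, 416 and 310, and 230, 217 and 326, so CLDN7 over F11R overlapped between groups on that scale. CLDN4 over F11R and CLDN7 over CLDN4 did not overlap there. No share over all pairs of genes was computed.

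SNAI2, the gene of a repressor of epithelial junction genes, was named after its value was seen. It had 16.2, 14.2 and 15.3 CPM in sh-NC and 11.1, 10.8 and 10.4 CPM in shRBM10, with a log2 fold change of -0.50 (SE 0.25, adjusted p = 0.242 by edgeR). With the GC trend removed it was -1.08 (SE 0.24, adjusted p = 0.133 by edgeR). The related repressor gene SNAI1, of the same list, had a log2 fold change of 0.07 (SE 0.32) at a mean of 2.3 CPM in sh-NC. CTNNB1, the gene of beta-catenin, also named after its value was seen, had 158, 256 and 170 CPM in sh-NC and 368, 353 and 249 CPM in shRBM10, with a log2 fold change of 0.73 (SE 0.28, adjusted p = 0.174 by edgeR) and 0.41 with the GC trend removed. The adjusted p-values given for SNAI2 and CTNNB1 were above the threshold.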
